A study of Mus musculus with 6 samples.

Results

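The genes described here are those of the interferon response: ligands, receptor chains, the proteins that carry the signal, and the genes it induces. The list held 43 genes, of which 38 were measured among the 18193 genes on the array. A gene was measured where a probe set carried its symbol alone in the platform annotation, and where a gene had several such probe sets the brightest on average stood for it. Of the 43 genes, 2 were listed as ligands (1 measured), 4 as receptor chains (4 measured), 6 as signal proteins and regulators (6 measured) and 31 as induced genes (27 measured). Isg15, Ifi44, Oas1g, Ifi205 and Ifnk had no probe set of their own under this rule and were not analysed here.

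Skin tumours came from mice lacking E-FABP (EKO), a fatty acid binding protein of the epidermis encoded by Fabp5, and from wild-type mice (WT), 3 animals per genotype. Both genotypes received DMBA, which mutates skin cells, and TPA, a phorbol ester that makes mutated cells grow out, over 5 months. Tumours were digested to single cells, and RNA from each animal's tumour cells was hybridised to 1 Affymetrix 3' array. The labels call the cells keratinocytes, the design text calls them tumour cells, and the sources used here give no strain, sex or age, nor the cells in which E-FABP is missing.

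Interferons are secreted proteins that cells release on sensing foreign or misplaced nucleic acid. Type I interferons, such as interferon beta, bind a receptor of the chains IFNAR1 and IFNAR2, while interferon gamma binds IFNGR1 and IFNGR2. The type I signal leads to a complex with STAT2 and IRF9 that binds the interferon-stimulated response element (ISRE), and the interferon gamma signal acts through the gamma-activated site (GAS). The induced genes encode antiviral enzymes, sensors of nucleic acid and proteins of antigen presentation. Keratinocytes, macrophages and dendritic cells all respond to interferons in skin.

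The 6 arrays had nearly equal medians on the log2 scale of RMA, the authors' probe set summary, from 5.40 to 5.43, and across probe sets the pairwise r ran from 0.988 to 0.994. A value below the lower quartile of its array, 3.90 to 3.96, is called near the floor, where RMA narrows differences. Fabp5 had log2 values of 8.20, 8.30 and 7.98 in EKO replicates 1, 2 and 3, against 14.82, 14.94 and 14.80 in WT replicates 1, 2 and 3, so every array matched its label. Fabp5 was also the single gene past an adjusted p of 0.05 (limma, Benjamini-Hochberg adjustment over all 18193 genes), 0.0055% of those tested. The 8 keratinocyte markers had mean log2 levels of 13.11 to 13.35 in EKO and 13.10 to 13.27 in WT arrays, and 0 of them lay near the floor in all arrays. Markers of other cells were present too: the 10 macrophage and monocyte markers had mean levels of 7.39 to 7.96 in EKO and 7.85 to 8.27 in WT arrays. Their median difference, EKO minus WT, was -0.43, with 9 of 10 lower by the mean. The 5 skeletal muscle markers had mean levels of 6.27 to 7.60 in EKO and 6.14 to 9.83 in WT arrays, the highest being WT replicate 1, and a median difference of -1.23 with 5 of 5 lower. The T and NK cell markers had a median difference of -0.21 with 5 of 7 lower, and the dendritic cell markers one of -0.10 with 6 of 7 lower. B cell markers had one of 0.07 with 1 of 3 lower, and pan-leukocyte markers one of -0.08 with 2 of 3 lower. For plasmacytoid dendritic cell markers it was -0.07 with 3 of 5 lower, and for neutrophil markers -0.12 with 3 of 5 lower. Fibroblast markers had -0.20 with 4 of 5 lower, and endothelial markers -0.14 with 2 of 4 lower. In such mixed samples fewer cells of a type and less RNA per cell cannot be told apart.

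Most interferon genes had slightly lower means in EKO than in WT tumours, and 2 genes of the HIN-200 family were far higher in EKO replicates 1 and 3 alone. Of the 38 measured members, 28 were lower by the mean and 10 higher, where 9088 of all 18193 genes, or 50%, were lower. The median log2 difference was -0.17 over the members and 0.00014 over all genes. No member passed the limma test (0 lower and 0 higher, smallest adjusted p = 0.546), and at an unadjusted p under 0.05 there were 5 lower and 1 higher, against 3.7% and 3.44% of all genes. For 7 members all EKO values lay below all WT values, a state that 6.19% of all genes shared, and for 1 member all EKO values lay above, as for 5.78% of all genes. Leaving out EKO replicate 2 gave 22 lower members and leaving out EKO replicate 1 gave 33. The plot of differences shows the receptors on the lower side with narrow intervals, the induced genes spread around a small negative median, and Ifi204 and Ifi209 apart on the higher side with wide ones.

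**Figure D1:**
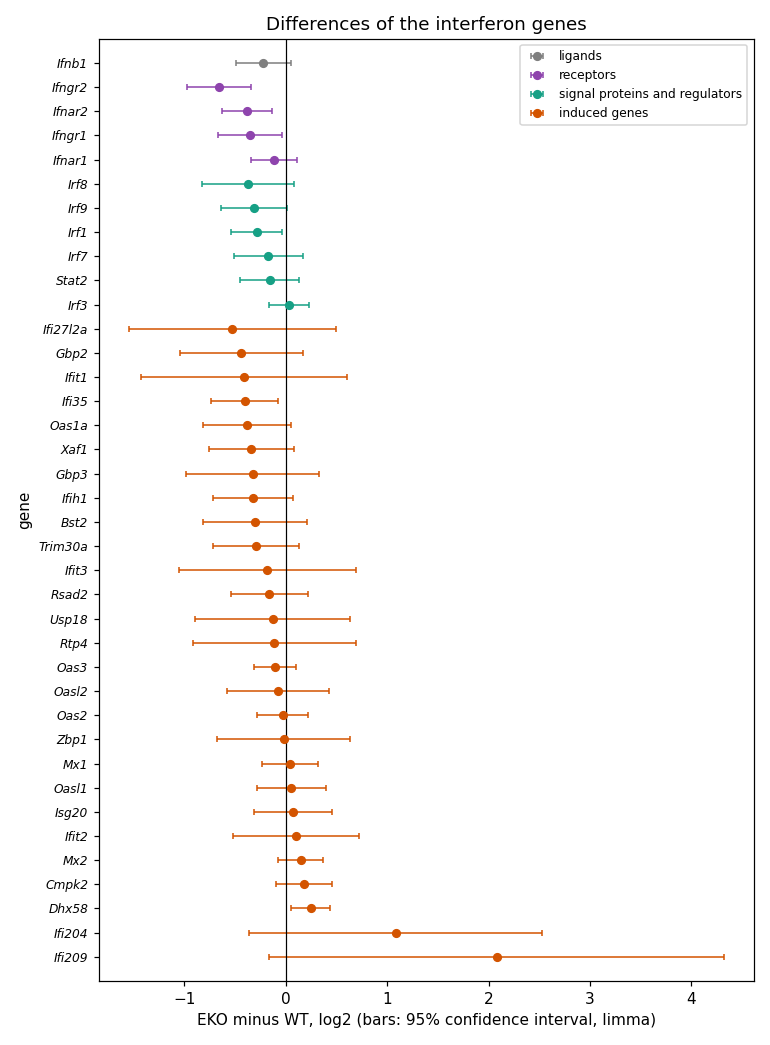
Log2 difference, EKO minus WT (x axis), of each of the 38 measured genes (y axis), with bars for the 95% confidence interval from limma and colours for the role. Ifngr2 has the lowest value, -0.66, and Ifi209 the highest, 2.08, with an interval from -0.16 to 4.32.

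Ifnb1, the gene of interferon beta and the 1 listed ligand measured, lay below the array medians in both genotypes. It had log2 values of 3.96, 3.76 and 4.12 in EKO replicates 1, 2 and 3, against 4.26, 4.17 and 4.08 in WT replicates 1, 2 and 3. The groups overlapped, 1 of the 6 values lay near the floor and 0 lay above the array median, so its level is weakly measured (difference -0.22, SE 0.115, limma adjusted p = 0.744). Ifng, the gene of interferon gamma, is a further pathway gene and lay near the floor in all 6 arrays (mean 3.48 in EKO and 3.53 in WT tumours). Not all ligands of the wider list were so low: Ifna1, a type I interferon gene named here after its values were seen, read 5.67, 5.87 and 5.76 in EKO replicates 1, 2 and 3, against 5.96, 5.91 and 5.91 in WT replicates 1, 2 and 3. All 6 Ifna1 values lay above the array medians and the groups did not overlap (difference -0.16, limma adjusted p = 0.756). Ifna2 and Ifna4, also named after their values were seen, had differences of 0.11 and -0.10. Their groups overlapped, and 0 of their values lay above the array medians.

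The receptor chains were lower by the mean in EKO tumours for 4 of 4 genes, and for 3 of these the groups did not overlap, where 6.19% of all genes had EKO wholly below WT. Ifngr2, the signalling chain of the interferon gamma receptor, had log2 values of 6.55, 6.90 and 6.83 in EKO replicates 1, 2 and 3, against 7.62, 7.37 and 7.26 in WT replicates 1, 2 and 3. All EKO values lay below all WT values, and the WT mean was 1.58-fold above the EKO mean (difference -0.66, SE 0.135, limma adjusted p = 0.546). Its dimmer probe set also had a lower EKO mean (6.50 in EKO and 6.82 in WT tumours, difference -0.32). There the groups overlapped, with EKO replicate 2 at 6.75 and WT replicate 3 at 6.66.

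Ifngr1, the ligand-binding chain of the same receptor, read 8.50, 8.65 and 8.70 in EKO replicates 1, 2 and 3, against 9.22, 8.93 and 8.75 in WT replicates 1, 2 and 3. The groups did not overlap, but EKO replicate 3 and WT replicate 3 were only a small step apart, and without WT replicate 1 the difference was -0.22 (difference -0.35, SE 0.134, limma adjusted p = 0.662). Ifnar2, a chain of the type I receptor, read 7.52, 7.39 and 7.39 in EKO replicates 1, 2 and 3, against 7.98, 7.77 and 7.69 in WT replicates 1, 2 and 3. The 3 EKO values lay within a narrow band below every WT value (difference -0.38, SE 0.105, limma adjusted p = 0.621). Of its 2 dimmer probe sets, one had a mean of 5.71 in both EKO and WT tumours, and the other a difference of -0.23.

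Ifnar1, the other type I chain, averaged 7.19 ± 0.135 in EKO tumours and 7.30 ± 0.0461 in WT tumours (SD, n = 3 each), and its groups overlapped. Its difference of -0.11 had a 95% interval from -0.34 to 0.12. The median difference of the 4 chains was -0.36, and it was -0.26 without WT replicate 1, the array with the highest value for 3 of the 4. No receptor chain passed the test.

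**Figure D2:**
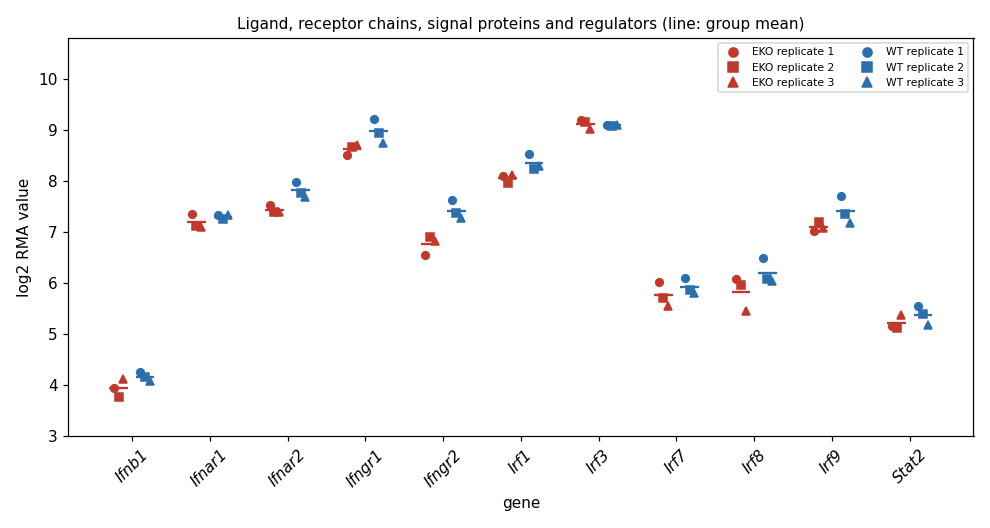
Log2 RMA value (y axis) of the ligand, receptor chains, signal proteins and regulators (x axis) in each array, EKO left of WT within a gene, with lines for group means. For Ifnar2, Ifngr1, Ifngr2 and Irf1 the 3 EKO points lie below the 3 WT points, while those of Irf3 overlap near 9.1.

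Among the signal proteins and regulators 5 of 6 were lower by the mean in EKO tumours, with a median difference of -0.23 and 0 past the test. Without WT replicate 1 that median was -0.13. Irf1, a transcription factor that interferon gamma induces through the GAS of its promoter, read 8.09, 7.95 and 8.12 in EKO replicates 1, 2 and 3, against 8.52, 8.22 and 8.29 in WT replicates 1, 2 and 3. It was the 1 gene of the 6 without overlap (difference -0.29, SE 0.107, limma adjusted p = 0.662).

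Irf9, the DNA-binding part of the complex with STAT proteins, read 7.02, 7.19 and 7.09 in EKO replicates 1, 2 and 3, against 7.69, 7.35 and 7.18 in WT replicates 1, 2 and 3. The EKO values were close together, and the highest of them stood just above the lowest WT value, and without WT replicate 1 the difference was -0.17 (difference -0.31, limma adjusted p = 0.704). Irf8, a factor of macrophage and dendritic cell development, read 6.07, 5.95 and 5.46 in EKO replicates 1, 2 and 3, against 6.49, 6.08 and 6.04 in WT replicates 1, 2 and 3. Its groups overlapped narrowly, and without EKO replicate 3 the difference was -0.19 (difference -0.37, limma adjusted p = 0.735).

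Irf7, which drives type I interferon production once induced, averaged 5.76 ± 0.233 in EKO tumours and 5.93 ± 0.157 in WT tumours (SD, n = 3 each), with overlap. Stat2, the STAT protein of the type I signal, averaged 5.22 in EKO tumours and 5.37 in WT tumours, with 1 of 6 values above the array median. Irf3, which starts interferon production after sensing and is present before any signal, averaged 9.12 ± 0.0928 in EKO tumours and 9.08 ± 0.00898 in WT tumours (SD, n = 3 each). Its difference of 0.04 had a 95% interval from -0.16 to 0.24, and its 4 probe sets had differences in both directions, from -0.19 to 0.04. The receptor and regulator values in the dot plot thus show small shifts, with WT replicate 1 highest for 8 of these 10 genes.

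Promoters are shown for 6 members, chosen to set induced genes with an ISRE or GAS match beside Ifngr2 and Ifi209, the members with the lowest and the highest difference. RefSeq promoters of build GRCm38.p6, from 250 bases before to 50 bases after a gene's start, were found for 34 of the 43 listed genes. The ISRE was searched as GAAA, any 2 bases and GAAA again, and the GAS as TTCNNNGAA, each on both strands. An ISRE match stood in 14 of these 34 genes, against 3.99% of 27025 genes with a promoter, and a GAS match in 9 of 34, against 9.55%. Of the induced genes 13 of 22 held an ISRE match, and of the ligands, receptors and regulators 1 of 12 did, which was Stat2. The list was drawn up as interferon genes, so these counts describe the list, and a match is not a shown binding site. The letters follow 5' to 3' on the gene's strand, with ISRE and GAS matches in capitals.
Ifit1, chr19:34640639-34640938, plus strand: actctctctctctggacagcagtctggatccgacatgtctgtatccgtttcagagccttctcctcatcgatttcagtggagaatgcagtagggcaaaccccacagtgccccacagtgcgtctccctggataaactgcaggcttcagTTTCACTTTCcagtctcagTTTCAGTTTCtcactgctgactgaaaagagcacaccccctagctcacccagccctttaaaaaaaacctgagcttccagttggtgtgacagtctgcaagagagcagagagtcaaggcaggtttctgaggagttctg
Oas1a, chr5:120907476-120907775, minus strand: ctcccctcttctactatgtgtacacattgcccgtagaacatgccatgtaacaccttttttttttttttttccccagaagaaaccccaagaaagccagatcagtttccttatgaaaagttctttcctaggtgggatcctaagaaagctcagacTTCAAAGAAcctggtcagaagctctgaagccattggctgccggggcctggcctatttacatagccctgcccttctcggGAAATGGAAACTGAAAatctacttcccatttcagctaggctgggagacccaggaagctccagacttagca
Gbp2, chr3:142620413-142620712, plus strand: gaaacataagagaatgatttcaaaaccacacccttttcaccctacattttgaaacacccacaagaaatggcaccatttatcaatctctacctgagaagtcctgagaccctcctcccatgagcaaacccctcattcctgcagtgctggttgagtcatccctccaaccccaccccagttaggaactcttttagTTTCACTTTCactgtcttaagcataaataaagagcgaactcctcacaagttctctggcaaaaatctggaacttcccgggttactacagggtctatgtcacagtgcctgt
Irf1, chr11:53769764-53770063, plus strand: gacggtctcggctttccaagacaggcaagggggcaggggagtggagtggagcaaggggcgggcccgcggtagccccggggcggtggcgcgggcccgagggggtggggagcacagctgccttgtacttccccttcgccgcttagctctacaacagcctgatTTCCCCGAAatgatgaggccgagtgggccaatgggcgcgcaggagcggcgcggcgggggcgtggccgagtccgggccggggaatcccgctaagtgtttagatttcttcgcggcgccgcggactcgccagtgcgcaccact
Ifngr2, chr16:91546809-91547108, plus strand: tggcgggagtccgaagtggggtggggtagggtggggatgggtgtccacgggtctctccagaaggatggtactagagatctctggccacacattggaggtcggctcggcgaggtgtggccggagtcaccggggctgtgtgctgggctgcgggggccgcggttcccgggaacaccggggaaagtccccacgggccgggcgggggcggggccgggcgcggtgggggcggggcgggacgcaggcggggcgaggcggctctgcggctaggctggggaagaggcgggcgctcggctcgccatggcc
Ifi209, chr1:173630609-173630908, plus strand: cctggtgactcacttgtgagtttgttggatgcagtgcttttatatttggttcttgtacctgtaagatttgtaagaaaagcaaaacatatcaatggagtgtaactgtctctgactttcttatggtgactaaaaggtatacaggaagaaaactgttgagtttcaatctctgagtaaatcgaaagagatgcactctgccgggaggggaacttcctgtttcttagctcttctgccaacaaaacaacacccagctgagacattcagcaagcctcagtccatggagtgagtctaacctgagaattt
The Ifit1 promoter holds 2 ISRE matches, which begin 104 and 85 bases before the start, the Oas1a promoter 2 overlapping ones and a GAS match, and the Gbp2 promoter 1 ISRE match. Irf1 had 2 promoters, and the shown one was picked for its GAS match, which begins 90 bases before the start. The promoters of Ifngr2 and Ifi209 hold neither set of letters in this window.

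The induced genes apart from Ifi204 and Ifi209 had differences from -0.53 to 0.25, some within and some beyond the spread within a genotype. Of 27 measured induced genes 18 were lower and 9 higher by the mean, with a median difference of -0.11. Without EKO replicate 2 that median was 0.05, without WT replicate 1 it was -0.01, without EKO replicate 1 it was -0.26 and without WT replicate 2 it was -0.31. WT replicate 1 held the highest value for 15 of the 27 genes and EKO replicate 2 the lowest for 16, while over all genes these arrays held 3870 and 3096 of 18193. The members' residual SD, the spread within the genotypes, had a median of 0.27 for the induced genes, 0.15 for the receptors and 0.14 for all genes tested.

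The Ifit family, whose proteins bind foreign RNA, shows the spread between arrays. Ifit1 read 5.66, 4.06 and 4.66 in EKO replicates 1, 2 and 3, against 5.71, 4.62 and 5.28 in WT replicates 1, 2 and 3. Within each genotype replicate 1 was highest and replicate 2 lowest, and the groups overlapped (difference -0.41, 95% interval from -1.42 to 0.60). Ifit3 read 6.21, 4.81 and 5.41 in EKO replicates 1, 2 and 3, against 5.93, 5.14 and 5.91 in WT replicates 1, 2 and 3, and its difference was -0.18. Ifit2 had the same lowest array in each genotype, EKO replicate 2 at 5.29 and WT replicate 2 at 4.97, and a difference of 0.10.

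Usp18, a protease that removes ISG15 and damps the type I receptor, read 6.26, 5.51 and 5.63 in EKO replicates 1, 2 and 3, against 6.58, 5.38 and 5.82 in WT replicates 1, 2 and 3. Rtp4, an interferon-induced receptor transporter, read 7.35, 6.21 and 6.72 in EKO replicates 1, 2 and 3, against 7.45, 6.47 and 6.70 in WT replicates 1, 2 and 3. Both genes were highest in replicate 1 of their genotype, with differences of -0.13 and -0.11 that lay well within the spread. Ifi27l2a, an interferon-induced protein of mitochondria and nuclear envelope, read 8.32, 7.35 and 7.81 in EKO replicates 1, 2 and 3, against 9.34, 7.75 and 7.98 in WT replicates 1, 2 and 3. WT replicate 1 stood far above the other arrays, and without it the difference of -0.53 was -0.04.

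**Figure D3:**
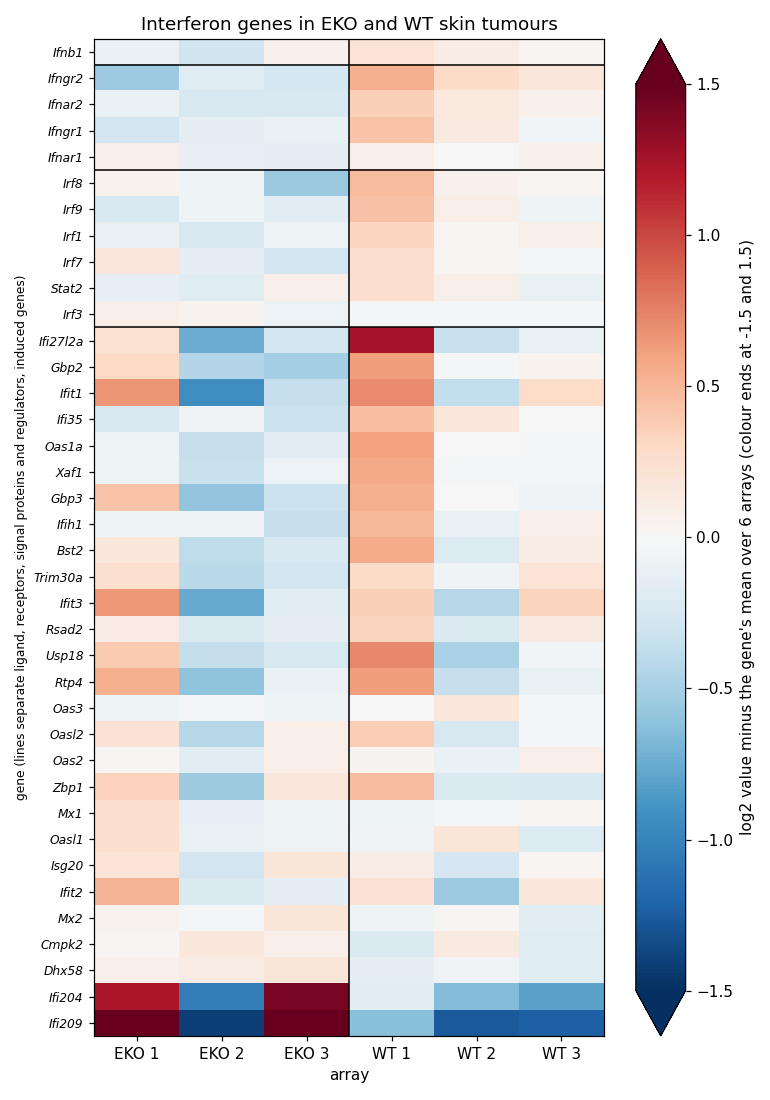
Log2 value of each gene (rows, by role) minus its own mean over the 6 arrays, in each array (columns, EKO left of WT). WT replicate 1 is high for most rows, EKO replicate 2 low for most induced genes, and Ifi204 and Ifi209 are high in EKO replicates 1 and 3 and low in the other arrays.

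The guanylate-binding proteins, large GTPases that attack membranes around pathogens, were lower by the mean in EKO tumours for 2 of 2 genes. Gbp2 read 7.27, 6.54 and 6.47 in EKO replicates 1, 2 and 3, against 7.60, 6.96 and 7.03 in WT replicates 1, 2 and 3, and EKO replicate 1 overlapped the WT values, and without WT replicate 1 the difference was -0.23 (difference -0.44, SE 0.258, limma adjusted p = 0.765). Gbp3 had a difference of -0.33 with a 95% interval from -0.98 to 0.33.

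The 5 measured genes of the Oas family, whose proteins sense double-stranded RNA or resemble those that do, included 1 without overlap. Oas1a read 7.87, 7.60 and 7.77 in EKO replicates 1, 2 and 3, against 8.54, 7.94 and 7.91 in WT replicates 1, 2 and 3. The groups did not overlap, though EKO replicate 1 and WT replicate 3 nearly met, and without WT replicate 1 the difference was -0.17 (difference -0.38, SE 0.182, limma adjusted p = 0.716). Oas1a belongs to a group of near-identical paralogs, so its probe set may read several of them. Oas2, Oas3, Oasl1 and Oasl2 had differences from -0.10 to 0.05, and Oasl2 lay near the floor in 5 arrays and Oas3 in 3. Mx1 and Mx2, dynamin-like antiviral GTPases, had means of 4.11 and 4.70 in EKO and 4.07 and 4.55 in WT tumours, and 0 of their values reached the array median.

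Among the sensors of nucleic acid, Ifih1, which encodes the RNA sensor MDA5, read 8.10, 8.10 and 7.83 in EKO replicates 1, 2 and 3, against 8.66, 8.06 and 8.27 in WT replicates 1, 2 and 3. Its groups overlapped through WT replicate 2, and without WT replicate 1 the difference was -0.15 (difference -0.32, limma adjusted p = 0.748). Dhx58, which encodes the related LGP2, was the 1 member with all EKO values above all WT values: 4.18, 4.21 and 4.28 in EKO replicates 1, 2 and 3, against 3.97, 4.05 and 3.92 in WT replicates 1, 2 and 3. These values lay below the array medians and 1 was near the floor, and its 2 dimmer probe sets had differences of -0.09 and 0.14 (difference 0.25, SE 0.0831, limma adjusted p = 0.63). Zbp1, a sensor of Z-form nucleic acid, had means of 6.13 in EKO and 6.15 in WT tumours, with a 95% interval of the difference from -0.67 to 0.63.

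Among the remaining effectors, Ifi35, which partners the STAT-binding protein NMI, was the brightest induced gene and read 9.77, 9.95 and 9.67 in EKO replicates 1, 2 and 3, against 10.45, 10.16 and 9.99 in WT replicates 1, 2 and 3. All EKO values lay below all WT values, as they did for the other two Ifi35 probe sets (difference -0.40, SE 0.139, limma adjusted p = 0.638). Xaf1, which binds the apoptosis inhibitor XIAP, read 6.30, 6.04 and 6.29 in EKO replicates 1, 2 and 3, against 6.95, 6.36 and 6.35 in WT replicates 1, 2 and 3, again without overlap but with a small gap, and without WT replicate 1 the difference was -0.14 (difference -0.34, limma adjusted p = 0.747). Bst2, which tethers budding virions, had a difference of -0.30, the ubiquitin ligase gene Trim30a one of -0.29 and the radical enzyme gene Rsad2 one of -0.16, all with overlap. Cmpk2, a mitochondrial nucleotide kinase gene, had a difference of 0.18 with overlap, and 0 of its values lay above the array median. Its dimmer probe set had a difference of -0.07. The exonuclease gene Isg20 had one of 0.07, with overlap.

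Ifi204 and Ifi209, of the HIN-200 family of interferon-induced proteins that bind DNA or associate with chromatin, were the members with the widest spread. Ifi209 read 8.72, 5.41 and 9.46 in EKO replicates 1, 2 and 3, against 6.19, 5.56 and 5.61 in WT replicates 1, 2 and 3. EKO replicates 1 and 3 stood well above every other array, while EKO replicate 2 was the lowest of the 6. The EKO SD was 2.16 and the WT SD 0.354 (n = 3 each), and the mean difference of 2.08 had an SE of 0.95 (limma adjusted p = 0.707). Its dimmer probe set also had EKO replicates 1 and 3 far above the rest, with EKO replicate 2 just above WT replicates 2 and 3: 8.04, 4.29 and 8.81 in EKO replicates 1, 2 and 3, against 4.61, 4.22 and 4.21 in WT replicates 1, 2 and 3.

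Ifi204, which encodes p204, read 7.07, 4.81 and 7.27 in EKO replicates 1, 2 and 3, against 5.67, 5.19 and 5.04 in WT replicates 1, 2 and 3. The same 2 EKO arrays were high and the same one was lowest (difference 1.08, SE 0.614, limma adjusted p = 0.76). Without EKO replicate 2 both genes passed, Ifi209 with a difference of 3.31 (limma adjusted p = 0.0167) and Ifi204 with 1.87 (limma adjusted p = 0.0408), 2 of the 38 genes, 0.209% of all genes tested, that rose in that fit. Without EKO replicate 3 the differences were 1.28 for Ifi209 and 0.64 for Ifi204, and without EKO replicate 1 they were 1.65 and 0.74. EKO replicate 2 was set aside after its values were known, and over all alternatives the adjusted p of both went up to 0.998.

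RefSeq places Ifi204 and Ifi209 on chromosome 1 in a run of 13 coding genes from Aim2 to Ifi205, of which 8 were measured. The others of the run were looked at after these values were seen. Ifi202b, a HIN-200 gene known to differ in expression between mouse strains, read 10.11, 7.96 and 9.94 in EKO replicates 1, 2 and 3, against 8.27, 8.41 and 7.30 in WT replicates 1, 2 and 3. It was again high in EKO replicates 1 and 3, with EKO replicate 2 inside the WT range (difference 1.34, limma adjusted p = 0.704). Without EKO replicate 2 its difference was 2.03 and it did not pass (limma adjusted p = 0.128).

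The other 5 measured genes of the run lacked this pattern. Ifi207, which RefSeq places between Ifi209 and Ifi204, averaged 3.80 ± 0.275 in EKO tumours and 3.86 ± 0.266 in WT tumours (SD, n = 3 each), with 3 of 6 values near the floor. Mndal, next after Ifi204 among the measured genes, read 8.42, 7.85 and 7.89 in EKO replicates 1, 2 and 3, against 8.54, 7.77 and 8.11 in WT replicates 1, 2 and 3. All 6 Mndal values lay above the array medians, and its groups overlapped. Ifi203 and Aim2, the gene of a sensor of cytosolic DNA, had differences of -0.07 and -0.05, and Ifi213 one of 0.23. HIN-200 genes are close paralogs, so a probe set named for one may also read another.

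**Figure D4:**
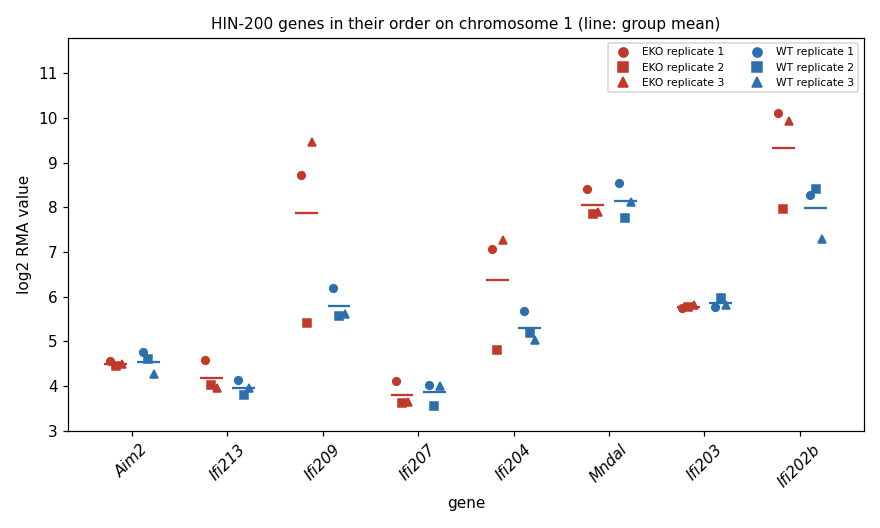
Log2 RMA value (y axis) of the 8 measured genes from Aim2 to Ifi202b in their order on chromosome 1 (x axis), EKO left of WT within a gene, with lines for group means. Ifi209, Ifi204 and Ifi202b are high in EKO replicates 1 and 3 and not in EKO replicate 2, and the other 5 show no such gap.

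A wider list of 96 interferon pathway genes, 86 of them measured, leaned the same way, with 67 lower and 19 higher by the mean (77.9% lower, against 50% of all genes), a median difference of -0.12 and 0 past the test. At an unadjusted p under 0.05 there were 9 lower, 10.5% of the list against 3.7% of all genes, and 0 higher, against 3.44% of all genes. For 15 the EKO values lay wholly below the WT values, 17.4% of the list where 6.19% of all genes did. WT replicate 1 held the highest value for 44 of the 86 genes, where over all genes it held 3870 of 18193. Without WT replicate 1 the median difference of this list was -0.08. The 4 genes with the smallest p were of antigen presentation and sensing. Psmb8 and Psmb9, subunits of the immunoproteasome that cuts peptides for MHC class I, had the largest shifts. Psmb8 read 8.75, 8.72 and 8.42 in EKO replicates 1, 2 and 3, against 9.73, 9.41 and 9.19 in WT replicates 1, 2 and 3, and the WT mean was 1.76-fold above the EKO mean (difference -0.81, SE 0.159, limma adjusted p = 0.546). Psmb9 averaged 8.02 ± 0.164 in EKO tumours and 8.76 ± 0.237 in WT tumours (SD, n = 3 each), also without overlap.

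B2m, the light chain of MHC class I, read 12.74, 13.12 and 12.78 in EKO replicates 1, 2 and 3, against 13.50, 13.52 and 13.42 in WT replicates 1, 2 and 3. The WT values were tightly grouped and all EKO values lay below them (difference -0.60, SE 0.119, limma adjusted p = 0.546). Sting1, the adaptor of cytosolic DNA sensing, averaged 6.30 ± 0.107 in EKO tumours and 6.74 ± 0.0836 in WT tumours (SD, n = 3 each; difference -0.45, limma adjusted p = 0.546). On the higher side, Adar, an RNA-editing enzyme, had a difference of 0.14 without overlap, the Schlafen gene Slfn4 one of 0.54, the nuclear body gene Sp100 one of 0.14 and the JAK family kinase gene Tyk2 one of 0.15. The kinase gene Jak1 averaged 9.67 in EKO tumours and 9.95 in WT tumours, with overlap.

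The groups differed in how evenly the arrays of a genotype behaved, as the mean distance of a group's genes from their 6-array means shows. For the receptors this score was -0.21, -0.17 and -0.18 in EKO replicates 1, 2 and 3, against 0.35, 0.14 and 0.07 in WT replicates 1, 2 and 3. For the induced genes without Ifi204 and Ifi209, left out once their values were known, it was 0.21, -0.31 and -0.11 in EKO replicates 1, 2 and 3, against 0.35, -0.13 and 0.01 in WT replicates 1, 2 and 3. The mean score of the 4 receptors thus separated the genotypes in these arrays, though Ifnar1 by itself did not. The score of the listed induced genes did not separate them, though Oas1a, Ifi35 and Xaf1 lay wholly lower in EKO and Dhx58 wholly higher. The 55 further induced genes of the wider list scored 0.02, -0.18 and -0.13 in EKO replicates 1, 2 and 3. In WT replicates 1, 2 and 3 they scored 0.25, 0.05 and -0.01, so EKO replicate 1 just overlapped WT replicate 3. Of them 46 were lower and 9 higher by the mean (83.6% lower, against 50% of all genes), with a median difference of -0.21. WT replicate 1 held the highest value for 32 of the 55. The macrophage and monocyte markers scored -0.11, -0.52 and 0.05 in EKO replicates 1, 2 and 3, against 0.35, -0.06 and 0.29 in WT replicates 1, 2 and 3, so EKO replicate 2 was lowest for them as well. Skeletal muscle markers scored 2.45 in WT replicate 1. The part of either cell type in the interferon values was not tested.

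**Figure D5:**
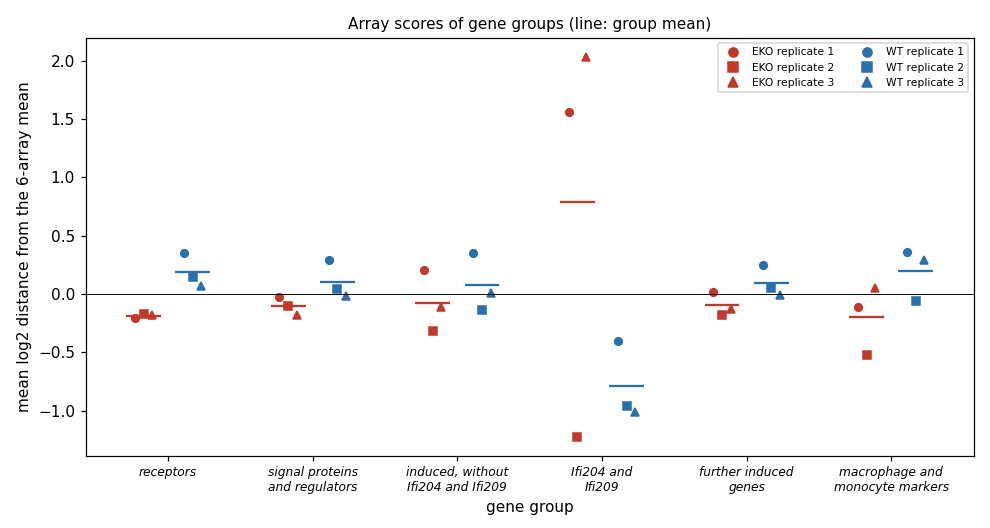
Mean log2 distance of a gene group from its 6-array means (y axis) in each array, for 6 groups of genes (x axis), EKO left of WT, with lines for group means. The receptor scores of EKO arrays all lie below those of WT arrays, the induced genes overlap, and Ifi204 with Ifi209 reach 1.56 and 2.03 in EKO replicates 1 and 3.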

How the data were processed

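Each array held biotin-labelled cRNA from 1 animal's tumour cells, per the labels' protocols. The deposited values are on a log2 scale, and the submitters' processing notes name RMA and Partek 6.6. RMA corrects background, normalizes quantiles between arrays and summarises probe sets. Without detection calls or scan dates, low values were kept and batches went untested. The RNA extraction kit differs between the design text and the sample protocols.

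Of 45101 probe sets, 64 controls were left out, and of the rest 34945 carried 1 symbol, 932 several and 9160 none here. The comparison used limma 3.58.1 under R 4.3.3, two-sided, over all 18193 genes with Benjamini-Hochberg adjustment at 0.05. Differences are EKO minus WT on the log2 scale. All members could be named, and of the wider list Jak1, Tyk2, Ifng and up to 4 genes per direction by smallest p. Some items that this rule names are not reported here. Members, lists and tests were chosen with earlier results of these data known. Alternatives were a replicate block, the upper 50% of means, repeated quantile normalization, centred medians, robust variances with an intensity trend, array weights, the mean over probe sets, each array left out and a threshold of 0.1. On simulated data with the real means and spreads of the 18193 genes, 27% of genes given a log2 change of 0.5 were recovered, 75.8% at 1 and 95% at 2. The simulated sets held planted changes of several sizes at once, and their noise was independent between genes. In the real data 1 gene passed, so these shares may overstate what could be recovered here. The 3 arrays per group limit the precision.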

Additional observations from a re-analysis of the deposited data

How the results depend on the processing

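Of 38 members, 27 kept their direction under every alternative run for them, 22 lower and 5 higher in EKO tumours. The 11 others changed it, all when 1 array was left out and Irf3 also with the mean over probe sets (-0.077). There were 13 alternatives for the 16 members in the upper 50% of means and 12 for the others. The replicate block, the upper 50% of means and the robust variances with an intensity trend cannot change a difference in this balanced design. The mean over probe sets can change it only for members with several probe sets. The kept directions therefore rest on the remaining alternatives. Over the arrays left out, Irf3 ran from -0.00053 to 0.088, Ifit2 from -0.14 to 0.24, Ifit3 from -0.55 to 0.16, Isg20 from -0.030 to 0.24, Mx1 from -0.076 to 0.12, Oasl1 from -0.067 to 0.16, Oasl2 from -0.22 to 0.12, Oas2 from -0.089 to 0.049, Usp18 from -0.40 to 0.20, Rtp4 from -0.41 to 0.17 and Zbp1 from -0.20 to 0.24. The cause was not tested. Genes past the threshold ran from 1 to 42 with an array left out and members past it from 0 to 2, the upper ends without EKO replicate 2, and leaving out WT replicate 2 gave 2 genes. The receptors' median ran from -0.45 to -0.26, that of the signal proteins from -0.29 to -0.13 and that of the induced genes from -0.31 to 0.05, with -0.32 for the induced genes in the upper 50% of means. Among genes in the upper 50% of means, 14 of 16 members tested there were lower, a smaller count because fewer members entered. With a replicate block 1 gene and 0 members passed, and the medians could not change. Over all genes, same-numbered arrays correlated in their deviations by -0.07, -0.09 and -0.34, so no pairing by number was seen there. These correlations do not settle it for the interferon genes. The induced genes without Ifi204 and Ifi209 scored highest in replicate 1 and lowest in replicate 2 of each genotype. Low signal limits Ifnb1, Mx1, Mx2, Oas3, Oasl2, Dhx58 and Cmpk2.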
